A study of Homo sapiens with 18 samples.

Results

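Active distal enhancers were defined in the leukemia cell line MOLM-13 as H3K27ac loci away from promoters that also carried H3K4me1 and no H3K4me3. Overlapping H3K27ac intervals were merged into loci, and a locus was kept when it was under 10 kb wide, lay more than 2 kb from every protein-coding transcription start site (TSS), overlapped an H3K4me1 interval and overlapped no H3K4me3 interval. This gave 6272 enhancers, 20.4% of the 30670 H3K27ac loci. Among the other H3K27ac loci, 14673 lay within 2 kb of a TSS, 6315 were distal without H3K4me1, 3230 were distal with H3K4me3 and 180 were distal but 10 kb or wider. No test of the treatment entered the choice. The interval list of each mark was shared by DMSO and PR-957 libraries, so signal in either could have brought a locus in.

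MOLM-13 is a human acute myeloid leukemia line that carries a KMT2A rearrangement, and all libraries came from this 1 line. By the labels, cells were treated for 72 h (a legend of the study gives a shorter time for Cut&Tag heatmaps) with 100 nM PR-957 (also called ONX-0914), an inhibitor of the immunoproteasome subunit PSMB8, or with DMSO, the diluent, as the control. Histone marks were read by Cut&Tag, in which an antibody guides a transposase to the mark and the tagged DNA is sequenced. H3K27ac, H3K4me1, H3K27me3 and H3K4me3 were each profiled in 2 DMSO and 2 PR-957 libraries, which makes 16 libraries. Nothing in the labels says that replicates were separate cultures, so p-values here measure the spread between these libraries, which may be technical.

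Enhancers are stretches of DNA, often far from the gene they act on, where transcription factors bind and recruit coactivators. H3K4me1 is laid down by KMT2C and KMT2D and marks enhancers whether or not they are active, whereas H3K27ac, written by the acetyltransferases CBP and p300, marks active ones. H3K4me3 marks promoters, and H3K27me3, the product of Polycomb repressive complex PRC2, marks silenced chromatin. In KMT2A-rearranged leukemia the fusion protein keeps genes such as MEIS1, MEF2C and the HOXA cluster active, and myeloid enhancers are typically bound by PU.1, C/EBP, RUNX and AP-1 factors.

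The enhancers were narrow and mostly lay in introns or between genes. Their median width was 2214 bp (range 550 to 9931 bp) and together they covered 16.2 Mb. Of the 6272, 3333 (53.1%) had their centre in an intron of a protein-coding gene, 2727 (43.5%) were intergenic, 155 lay in an untranslated exon and 57 in a coding exon. The median distance to the nearest protein-coding TSS was 18808 bp, 4275 enhancers (68.2%) were more than 10 kb away and 789 (12.6%) more than 100 kb away. The TSS of another gene type, such as a long noncoding RNA, lay within 2 kb of 781 enhancers. H3K4me1 covered 4494 loci (71.7%) completely and 5928 (94.5%) by at least 50%. The H3K4me1 intervals were wider, with a median of 4901 bp, and 1052 enhancers shared their H3K4me1 interval with another enhancer, so that the 6272 enhancers were read from 5705 H3K4me1 intervals. For 1225 enhancers (19.5%) the H3K4me1 interval was 10 kb or wider. For 725 (11.6%) it lay within 2 kb of a protein-coding TSS. At the edges of the definition, the widest enhancer (near RXRA) measured 9931 bp and the narrowest locus left out for width (near FRG2C) 10036 bp, and the enhancer closest to a TSS (near IL1RAP) lay 2001 bp away while a locus at 2000 bp from MDN1 was left out.

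DNA from the middle of 5 enhancers is shown, because these members carry the results below: ITM2C and PTK7 for H3K27ac (PTK7 in place of a chromosome 21 enhancer of uncertain read origin), ENSG00000256029 for higher H3K4me1, ATP2B2 for lower H3K4me1, and the one enhancer nearest a KMT2A target gene that passed a threshold, at MEF2C, which was added after its values were seen. Each window is the 300 bases around the middle of the H3K27ac locus, written 5′ to 3′ on the plus strand of hg38, and capitals mark matches to the motifs listed after the sequences, on either strand.
ITM2C, chr2:230894316-230894615: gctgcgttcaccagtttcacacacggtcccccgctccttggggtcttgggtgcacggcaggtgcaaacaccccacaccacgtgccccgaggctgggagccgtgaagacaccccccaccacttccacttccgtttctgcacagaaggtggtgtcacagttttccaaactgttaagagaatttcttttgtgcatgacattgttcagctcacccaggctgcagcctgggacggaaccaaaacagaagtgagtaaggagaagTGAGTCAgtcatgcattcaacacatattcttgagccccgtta
PTK7, chr6:43113837-43114136: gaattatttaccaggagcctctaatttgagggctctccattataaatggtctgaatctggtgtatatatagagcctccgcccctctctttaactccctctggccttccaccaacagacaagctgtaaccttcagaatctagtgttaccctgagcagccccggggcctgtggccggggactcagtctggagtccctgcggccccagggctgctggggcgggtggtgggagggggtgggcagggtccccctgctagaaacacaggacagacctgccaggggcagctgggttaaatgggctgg
ENSG00000256029, chr1:159869093-159869392: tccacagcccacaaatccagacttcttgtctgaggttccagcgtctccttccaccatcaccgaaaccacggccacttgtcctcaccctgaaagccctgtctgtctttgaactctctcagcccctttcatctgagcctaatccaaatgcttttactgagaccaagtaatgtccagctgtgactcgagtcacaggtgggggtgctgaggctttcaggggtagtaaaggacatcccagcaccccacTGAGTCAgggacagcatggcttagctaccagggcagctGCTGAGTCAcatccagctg
ATP2B2, chr3:10419744-10420043: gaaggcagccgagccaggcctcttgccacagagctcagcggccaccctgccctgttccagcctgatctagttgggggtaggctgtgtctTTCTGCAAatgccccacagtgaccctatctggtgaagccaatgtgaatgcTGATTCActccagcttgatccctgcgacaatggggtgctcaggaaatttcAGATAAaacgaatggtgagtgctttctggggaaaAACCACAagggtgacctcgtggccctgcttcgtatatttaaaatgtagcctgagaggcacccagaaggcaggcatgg
MEF2C, chr5:88979453-88979752: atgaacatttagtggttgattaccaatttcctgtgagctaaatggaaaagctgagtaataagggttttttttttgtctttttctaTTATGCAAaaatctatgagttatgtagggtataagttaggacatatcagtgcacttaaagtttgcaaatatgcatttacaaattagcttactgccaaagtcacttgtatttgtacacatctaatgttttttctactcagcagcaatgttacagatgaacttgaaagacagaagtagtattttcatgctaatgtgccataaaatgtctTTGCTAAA

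Motifs of myeloid transcription factors were more frequent in the middle of these enhancers than at H3K27ac loci in general. The AP-1 motif TGANTCA stood in 14.3% of the 6272 windows, against 8.64% of the windows of all 30670 H3K27ac loci and 7.71% of 35116 RefSeq promoters of the same length (around annotated gene starts, hg38). The C/EBP motif TTGCNNAA stood in 15.8%, 10.7% and 10.5% of the 3 sets, RUNX (TGTGGTT) in 7.78%, 5.25% and 4.27%, and PU.1 (GAGGAAGT) in 4.29%, 2.72% and 2.59%. Both strands were searched, and a window was counted once however many matches it held.

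Some other motifs were rarer in the enhancers than in promoters. The ETS motif CCGGAAGT of GABPA and ELK stood in 0.255% of enhancer windows and 4.14% of promoters, the CREB and ATF motif TGACGTCA in 0.207% and 1.85%, and the CTCF core AGGGGGCGC in 0.0638% and 1.93%. The motif TGACNNNGC of NFE2L2, which can overlap an AP-1 match, varied less, with 14.8% of enhancers, 13.8% of all loci and 13.3% of promoters. The 6-letter GATA motif (AGATAA) was found in 13.4%, 9.13% and 10.3%, and the MEIS motif TGACAG in 22.2%, 18.9% and 15.8%. PBX and HOX sequences (TGATTNAT) were found in 3.86%, 2.32% and 2.82%. Base composition moved with these shares, since the median GC content was 49% in the enhancer windows, 55.3% at all H3K27ac loci and 58.7% in promoters. H3K4me1 loci that were distal and without H3K27ac had 44% GC, and held AP-1 in 13.5%, C/EBP in 17.9% and GATA in 18.6% of windows. The part of base composition in the motif shares was not tested. The PU.1 and GABPA motifs end in the same letters, and the CREB, MEIS and NFE2L2 motifs start alike. A match is only a stretch of letters, and no binding was measured.

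The library totals over all intervals ran from 9885836 to 14165777 for H3K27ac and from 15204186 to 30584219 for H3K4me1. An enhancer held a median of 41 and 30 H3K27ac counts in the DMSO libraries and of 32 and 44 in the PR-957 libraries, and of 282, 232, 150 and 226 H3K4me1 counts in the same order. Among the 1584 enhancers with the lowest H3K27ac counts, PR-957 replicate 2 stood apart, with a median of 2.25 CPM (counts scaled to a common library total) against 1.67, 1.61 and 1.71 in DMSO replicates 1 and 2 and PR-957 replicate 1. Of the marker genes, 7 of 8 monocytic genes (SPI1, CEBPA, CD33, LYZ, FLT3, CSF1R and ITGAM, but not MPO) had both H3K4me3 and H3K27ac at their promoter. None of 4 erythroid or megakaryocytic and 4 non-blood genes had both.

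H3K27ac at the enhancers was lower than at promoters and hardly differed between libraries. The median level was 1.46 and 1.40 CPM per kb of interval in DMSO and 1.46 and 1.47 in PR-957, against 2.70, 2.68, 2.64 and 2.70 for loci within 2 kb of a TSS. The ratio of the medians was 0.539 ± 0.0126 (SD, n = 4 libraries). Distal loci without H3K4me1 were lower still, with 1.12, 1.09, 1.17 and 1.20 CPM per kb. The enhancers held 7.83% to 8.08% of the H3K27ac counts summed over the widest interval of every locus, and promoter-proximal loci 72.5% to 73.0%. Without division by length the ratio of medians was 0.375, since promoter-proximal loci were wider.

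H3K4me1 showed the reverse order between enhancers and promoter-proximal loci, but the enhancers were not the highest class. The enhancers had a median of 1.93 and 1.92 CPM per kb in DMSO and 1.95 and 1.93 in PR-957. The H3K4me1 intervals at distal H3K27ac loci with H3K4me3 were higher, with medians from 2.202 to 2.424 over the libraries. Those at distal loci 10 kb or wider had medians from 3.047 to 3.653. H3K4me1 intervals at promoter-proximal H3K27ac loci had 1.37, 1.44, 1.33 and 1.36, and distal H3K4me1 loci without H3K27ac had 0.967, 1.03, 1.14 and 1.13. In the last class both PR-957 libraries lay above both DMSO libraries, whereas the 4 medians of the enhancers lay between 1.92 and 1.95 CPM per kb. Over the 6272 enhancers the log2 DMSO levels of the 2 marks had a Pearson correlation of 0.25, a description over sites that share libraries and interval calls.

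The enhancers with the highest H3K27ac level per kb in DMSO included 2 on the short arm of chromosome 21, at chr21:8232914-8235165 (19.5 CPM per kb) and chr21:8411079-8412254 (10.2 CPM per kb). The short arms of the acrocentric chromosomes share long repeated sequences, so the origin of reads placed there is uncertain. Next came an intergenic enhancer 432880 bp from FGF9, a fibroblast growth factor gene, at chr13:22113993-22115789, with 8.50 CPM per kb. It lay 655 bp from MTND3P1, a mitochondrial pseudogene, whose near-identical copies could share its reads. Its H3K27ac was 15.4 and 13.8 CPM in DMSO and 14.0 and 13.5 CPM in PR-957, and the groups overlapped. An intergenic enhancer 1000084 bp from OLFM4, which encodes a neutrophil granule glycoprotein, had 8.12 CPM per kb. One in an intron of GABRB1, a GABA receptor subunit gene, with COMMD8 as the nearest TSS, had 7.57 CPM per kb. In neither did H3K27ac pass the threshold, with log2 fold changes of -0.20 (edgeR adjusted p = 0.861) and 0.07 (edgeR adjusted p = 0.959).

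Enhancers often came in groups around the same gene. The 6272 had 3436 nearest protein-coding genes, of which 2161 had 1 enhancer, 201 had 5 or more and 32 had 10 or more. Joining enhancers at most 12.5 kb apart gave 4981 clusters, of which 38 held 5 or more enhancers (218 in all). The most populated cluster held 10 enhancers over 67.7 kb at chr6:7176668-7244406. Their nearest genes were RREB1, a zinc finger transcription factor gene, and SSR1. Clusters of 8 lay at MYH9, at ZFP36L2, which encodes an RNA-binding protein, and at IRF2BP2, and a cluster of 7 at LYN, a SRC-family kinase gene of myeloid cells.

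JARID2, which encodes a PRC2 cofactor, had the most enhancers (29, from 4170 to 533827 bp from its TSS, 12 of them in introns). COL23A1, a transmembrane collagen gene, had 17, all in introns. MTSS1 (an actin and membrane organiser), SPIDR (a scaffold in DNA repair) and ST3GAL1 (a sialyltransferase) had 15 each. Then 6 genes had 13 each: LY86, which encodes a partner of a Toll-like receptor homologue, the pseudokinase gene TRIB1, the oncogene MYC, GSDMC, LZTS1 and TRAPPC9. Of these 11 genes, 8 lie on chromosome 8, which held 757 enhancers, 12.1% of the enhancers and 9.55% of all H3K27ac loci. None of their enhancers passed the H3K27ac threshold, with medians of the log2 fold change between -0.16 (MYC) and 0.13 (TRIB1). In H3K4me1, 1 enhancer each nearest to SPIDR, ST3GAL1 and MYC rose.

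Whether PR-957 changed H3K27ac at the enhancers was tested with edgeR over all H3K27ac intervals. Of 6258 enhancers tested (14 had too few counts), 6 passed an adjusted p of 0.05: 1 rose and 5 fell. Over all 74510 intervals tested, 0.238% passed, 0.0644% higher and 0.173% lower, against 0.0959%, 0.016% and 0.0799% of the enhancers, so the enhancers were called no more often than intervals in general. All 6 had DMSO and PR-957 libraries that did not overlap, as did 2115 of the 6258 tested enhancers, called or not. A lack of overlap alone therefore says little about a single enhancer, and its share over all intervals is not given here. The median log2 fold change of the enhancers (PR-957 over DMSO) was 0.04, with the 5th to 95th percentile at -0.54 to 0.74, and that of all intervals was 4.5e-06, with -0.42 to 0.52. An unadjusted p under 0.05 was found at 351 enhancers (5.61%) and at 8.01% of all intervals. The median standard error per enhancer was 0.37, and 86.9% of the enhancers had a fold change within 1.5-fold.

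The 6 calls depended on single libraries. With 1 library left out, the log2 fold change ran from -1.646 to -0.610 at PTK7, from -1.905 to -0.986 at CAMK2D and from 0.766 to 1.306 at ITM2C. It ran from -0.621 to -0.400 at the chromosome 21 enhancer, from -1.256 to -1.035 at STARD8 and from -0.949 to -0.869 at SMOX. With PR-957 replicate 2 left out, edgeR called 0, and 472 had an unadjusted p under 0.05. With a trend in GC content removed, 1 rose (ITM2C) and 1 fell (chromosome 21), and with the fit and adjustment run on the widest interval of each locus alone 0 rose and 3 fell. DESeq2 gave none of the enhancers an adjusted p after its filter on mean counts. Without that filter it called 0 enhancers, with 130 at an unadjusted p under 0.05, and 0.0591% of all intervals. With 2 libraries against 2, an exact permutation test of a single enhancer cannot go below a two-sided p of 0.333.

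H3K27ac rose at 1 intergenic enhancer, chr2:230892192-230896738, which lay 13974 bp from the TSS of ITM2C, a transmembrane protein gene of the BRICHOS family. It had 4.31 and 3.13 CPM in DMSO and 9.26 and 6.40 CPM in PR-957. Both PR-957 libraries were above both DMSO libraries, and the log2 fold change was 1.03 (SE 0.25, edgeR adjusted p = 0.0274). H3K4me1 at the same place was 25.2, 23.8, 25.5 and 29.8 CPM in the same order, a log2 fold change of 0.18 (edgeR adjusted p = 0.441). An AP-1 match is the only motif in its window.

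Other enhancers with higher values did not pass. Near SGK1, which encodes a glucocorticoid-induced kinase, H3K27ac was 2.65 and 1.82 CPM in DMSO and 5.84 and 4.79 CPM in PR-957, without overlap (log2 fold change 1.22, SE 0.33, edgeR adjusted p = 0.0799). In an intron of GANC, a glucosidase gene, the log2 fold change was 1.07 (edgeR adjusted p = 0.0984), and in an intron of FAM178B it was 1.09 (edgeR adjusted p = 0.138).

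H3K27ac fell at 5 enhancers, of which 3 lay in introns of their nearest gene. In PTK7, a catalytically inactive receptor kinase gene of the Wnt pathway (chr6:43112703-43115270), it was 7.87 and 3.83 CPM in DMSO and 2.21 and 2.75 CPM in PR-957 (log2 fold change -1.25, SE 0.31, edgeR adjusted p = 0.0255). DMSO replicate 1 was far above replicate 2 there, and without it the log2 fold change was -0.61 (edgeR adjusted p = 0.885). In STARD8, the gene of a START domain protein (chrX:68702692-68704745), H3K27ac was 6.81 and 5.95 CPM in DMSO and 3.12 and 2.67 CPM in PR-957 (log2 fold change -1.15, SE 0.29, edgeR adjusted p = 0.0345). In CAMK2D, a calcium and calmodulin-dependent kinase gene (chr4:113555395-113557574), it was 5.90 and 4.64 CPM against 1.41 and 2.67 CPM (log2 fold change -1.33, SE 0.33, edgeR adjusted p = 0.0358). In each of the 3, both PR-957 libraries were below both DMSO libraries.

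The 4th was intergenic, 8291 bp from SMOX, the spermine oxidase gene, at chr20:4108149-4112689, with 8.93 and 9.38 CPM in DMSO and 4.73 and 5.00 CPM in PR-957. The replicates of each group were close and the groups did not overlap (log2 fold change -0.90, SE 0.23, edgeR adjusted p = 0.0400). The 5th was the chromosome 21 short arm enhancer at chr21:8232914-8235165, with 36.8 and 43.0 CPM against 27.9 and 27.9 CPM (log2 fold change -0.51, SE 0.11, edgeR adjusted p = 0.00231), where the read origin is uncertain as said above. None of the 6 passed in H3K4me1, and the promoter H3K27ac of ITM2C, PTK7, STARD8, CAMK2D and SMOX did not pass either, with log2 fold changes between -0.12 (CAMK2D) and 0.47 (PTK7).

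**Figure D1:**
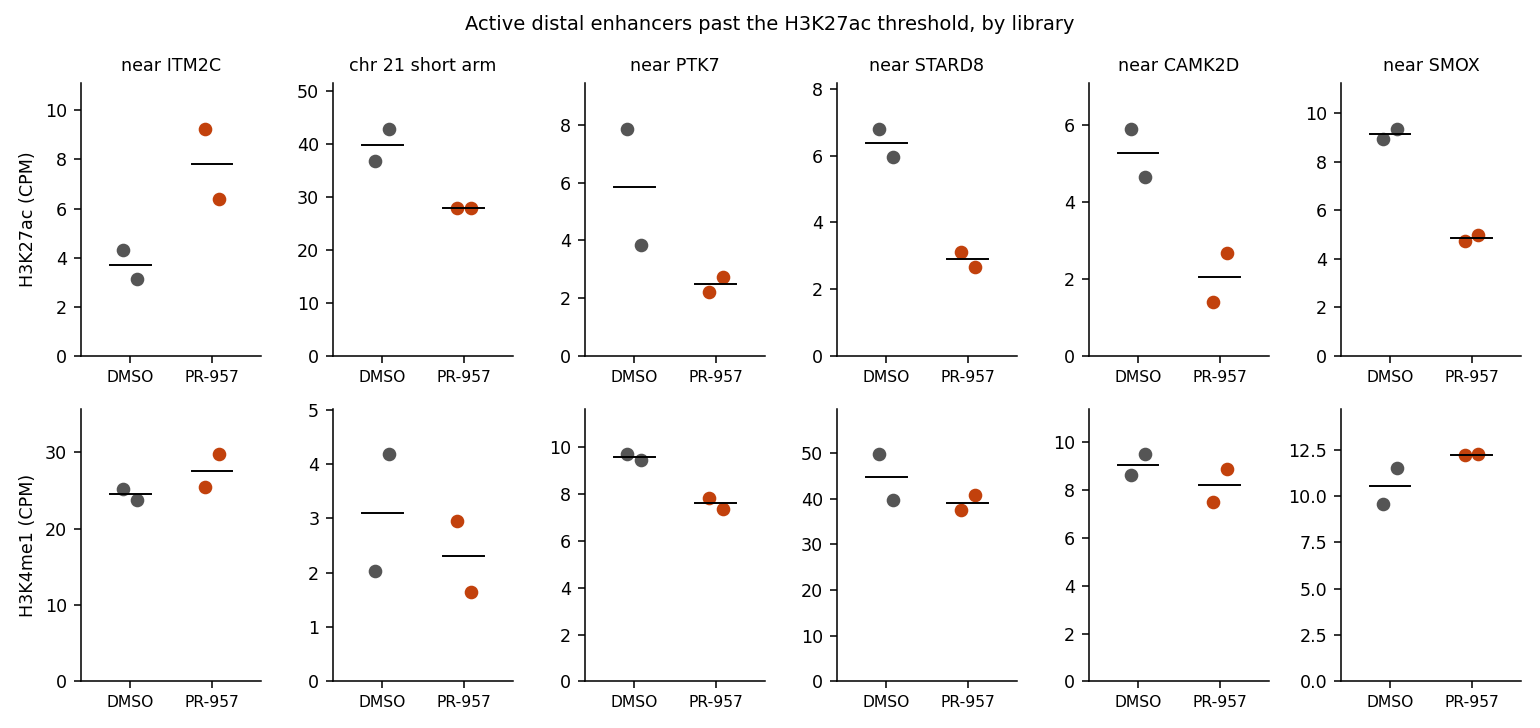
CPM of H3K27ac (top) and H3K4me1 (bottom) in each library at the 6 enhancers that passed the H3K27ac threshold, with points for libraries and a bar at the group mean (n = 2). In H3K27ac the groups do not overlap at any of the 6, and in H3K4me1 none of them passed.

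The faint enhancers carried the higher log2 fold changes. With the enhancers split into 4 groups of about equal size by H3K27ac count, the median was 0.26 in the faintest group (a mean of 8 to 26.8 counts per library) and 0.05, -0.01 and -0.06 in the next. The PR-957 replicate 2 library, which stood apart in the faintest group, moved with this median and its part in it was not tested. No enhancer of the 2 faintest groups was called.

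**Figure D2:**
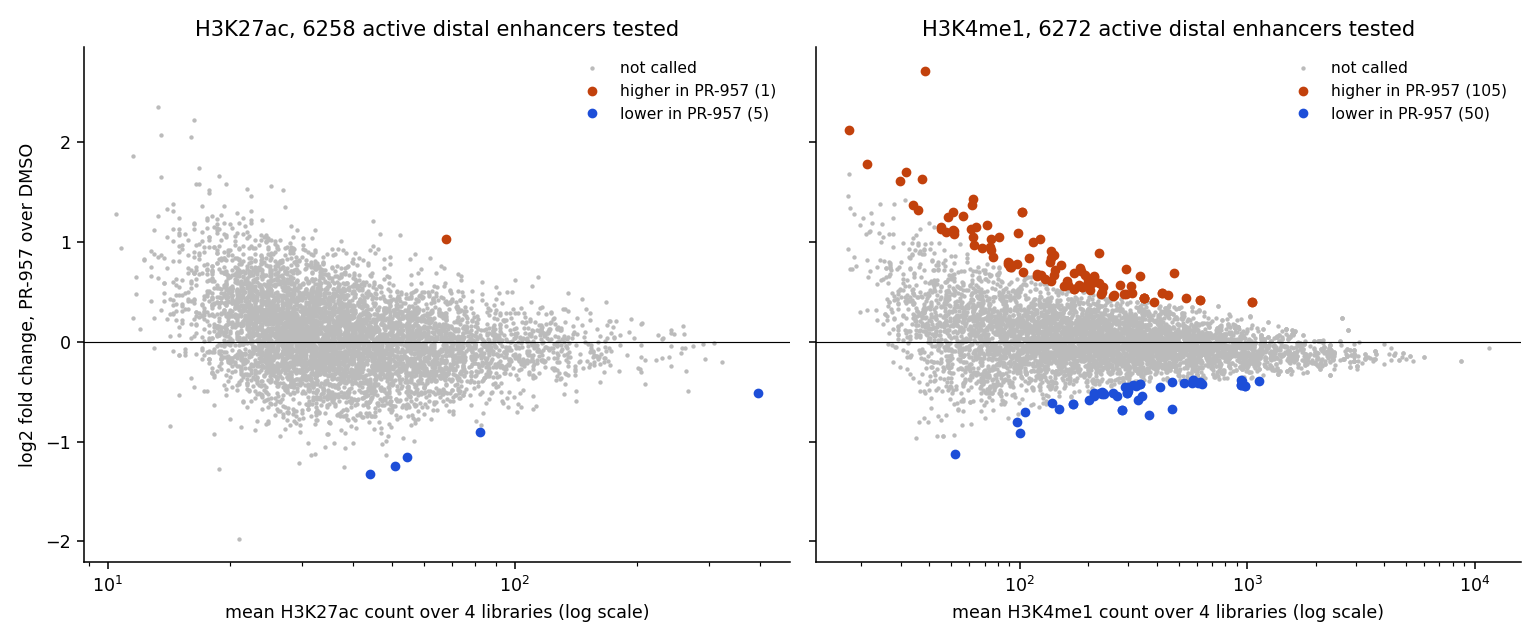
Log2 fold change (PR-957 over DMSO) of each tested enhancer against its mean count over the 4 libraries of the mark, on a log scale, with called enhancers in colour. H3K27ac (left) had 1 called higher and 5 lower, and H3K4me1 (right) 105 higher and 50 lower.

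Libraries of different treatment differed about as much in H3K27ac as libraries of the same treatment. The median absolute log2 difference per enhancer was 0.275 between the DMSO libraries and 0.310 between the PR-957 libraries, and ran from 0.279 to 0.325 across treatments. In H3K4me1 it was 0.143 and 0.141 within a treatment and 0.155 to 0.201 across.

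H3K4me1 passed the threshold at 155 of 6272 enhancers (2.47%), of which 105 (1.67%) rose and 50 (0.797%) fell. Over all 108158 H3K4me1 intervals 1.94% passed, 1.24% higher and 0.701% lower. The 155 enhancers were read from 140 intervals, 97 higher and 43 lower, and the groups did not overlap at any of them. Among the 4732 enhancers whose H3K4me1 interval was under 10 kb and over 2 kb from a TSS, 101 rose and 36 fell. Of all 6272 enhancers, called or not, 3054 had groups that did not overlap, so this alone says little about a single enhancer. The share over all intervals is not given here. The median log2 fold change of the 6272 enhancers was -0.01 (5th to 95th percentile -0.36 to 0.53), against -0.0011 (-0.42 to 0.64) over all intervals. The median standard error was 0.15, and 95.1% of the enhancers were within 1.5-fold. Without 1 library the count was 24 (DMSO replicate 1), 64 (DMSO replicate 2), 34 (PR-957 replicate 1) and 94 (PR-957 replicate 2).

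DESeq2 called 1 of the 3508 enhancers to which it gave an adjusted p, the one nearest GDAP1, and 0.0122% of all intervals given one. Without its filter it called 4 enhancers (ENSG00000256029, both at MYH7B and GDAP1) and 0.0185% of all intervals, with 570 enhancers at an unadjusted p under 0.05. Scaling to the library size alone gave 170 enhancers higher and 33 lower, and cyclic loess 169 and 28, so that the higher share of the calls was 83.7% and 85.8% in place of 67.7%. With the fit and adjustment run on 1 interval per locus 52 were higher and 66 lower, so the balance of directions turned.

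The largest H3K4me1 rise was at chr1:159867502-159870982, in an intron of the unnamed protein-coding gene ENSG00000256029. Its H3K4me1 was 0.678 and 0.293 CPM in DMSO and 3.72 and 2.96 CPM in PR-957, from 20, 7, 58 and 68 counts. Both PR-957 libraries were several times above both DMSO libraries, with a log2 fold change of 2.72 (SE 0.41, edgeR adjusted p = 8.21e-07). H3K27ac there was 4.39, 4.24, 2.72 and 5.07 CPM, with overlapping groups, and its window holds 2 AP-1 matches, 1 of which overlaps an NFE2L2 match.

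At an intergenic enhancer 159017 bp from USP38, a deubiquitinase gene, H3K4me1 was 6.37 and 8.11 CPM in DMSO and 13.5 and 13.2 CPM in PR-957 (log2 fold change 0.89, SE 0.14, edgeR adjusted p = 4.86e-06). A pair of enhancers in an intron of TRPC4AP, nearest to the TSS of the myosin gene MYH7B (chr20:35009712-35012911 and chr20:35013631-35015529), shared 1 H3K4me1 interval. It had 2.68 and 2.80 CPM in DMSO and 5.97 and 7.39 CPM in PR-957 (log2 fold change 1.299, SE 0.21, edgeR adjusted p = 4.86e-06). In all 3 the PR-957 libraries lay above the DMSO libraries in H3K4me1, while the H3K27ac groups overlapped. On chromosome 8, the enhancer in JPH1, nearest to the mitochondrial gene GDAP1, had 15.9 and 17.1 against 26.6 and 26.6 CPM (log2 fold change 0.69, SE 0.12, edgeR adjusted p = 2.24e-05). The one in PXDNL had 9.49 and 10.5 against 14.5 and 18.3 CPM (log2 fold change 0.73, SE 0.13, edgeR adjusted p = 7.03e-05).

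The most significant fall was in an intron of ZFR2, nearest to MATK, which encodes an inhibitory kinase of SRC-family kinases. H3K4me1 was 18.5 and 20.1 CPM in DMSO and 10.9 and 12.2 CPM in PR-957, without overlap (log2 fold change -0.73, SE 0.13, edgeR adjusted p = 3.01e-05). H3K27ac at the same enhancer was 5.53, 3.83, 7.25 and 3.03 CPM, with overlapping groups. In ATP2B2, a plasma membrane calcium pump gene (chr3:10419227-10420560), H3K4me1 was 22.0 and 26.4 CPM against 13.03 and 16.9 CPM (log2 fold change -0.68, SE 0.12, edgeR adjusted p = 5.89e-05). Its window holds a RUNX, a C/EBP, an AP-1 and a GATA match. A pair of enhancers that share 1 interval near RPL29, a ribosomal protein gene, had 14.5 and 14.6 against 9.18 and 8.87 CPM (log2 fold change -0.69, SE 0.14, edgeR adjusted p = 6.01e-04). The H3K4me1 intervals at ATP2B2 and RPL29 were 11084 and 10242 bp wide, so these values cover more than the enhancers. Near SPIN1, a reader of histone methylation, the log2 fold change was -0.58 (edgeR adjusted p = 0.00327). In an intron of CCR3, nearest to the other chemokine receptor gene CCR1, it was -0.54 (edgeR adjusted p = 0.00604).

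The enhancers that rose in H3K4me1 were fainter and poorer in GC than those that fell. Their intervals had a median of 44.2% GC and 1.28 CPM per kb in DMSO, against 52.1% and 2.34 for those that fell and 46.9% and 1.93 for those not called. Of 4 groups of equal size by GC, the lowest (33.5% to 43.4%) had a median log2 fold change of 0.10 with 47 higher and 1 lower, and the highest (51.3% to 68.6%) had -0.09 with 17 higher and 30 lower. With a trend in GC removed from every library, 75 enhancers were higher and 22 lower, against 0.611% and 0.275% of all intervals, and the medians of the lowest and highest group became -0.05 and 0.02. Of the 105 that rose, 63 were still called, and of the 50 that fell, 10 were. The members named above (ENSG00000256029, USP38, MYH7B, GDAP1, PXDNL, MATK, ATP2B2, RPL29, SPIN1 and CCR1) were all still called. Over the enhancers the log2 fold change had a Pearson correlation of -0.22 with GC in H3K4me1 and of -0.01 in H3K27ac (n = 6272 and 6258 sites that share libraries).

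Chromosome 8 held 38 of the 105 enhancers that rose and 2 of the 50 that fell, with a median log2 fold change of 0.09 over its 757 enhancers. Its H3K4me1 intervals had a median of 44.8% GC. Other chromosomes low in GC had medians of 0.08 (chromosome 13, 45.0%), 0.07 (5, 45.7%), 0.06 (4, 43.5%) and 0.03 (6, 45.5%). Others had -0.002 (18, 44.6%), -0.07 (X, 44.9%) and -0.08 (Y, 42.1%, 3 enhancers). The part of GC, or of the chromosome as a whole, was not tested. Outside chromosome 8, 67 of 5515 rose (1.21%) and 48 fell, with a median of -0.03. Chromosome 6, with 559 enhancers, held 15 that rose and 1 that fell. Shares over all H3K4me1 intervals of these chromosomes are not given here, so the counts cannot be read as particular to the enhancers. H3K27ac at the called enhancers of all chromosomes is given beside H3K4me1. Its median log2 fold change was 0.12 at the 105 that rose, where 66 were above 0. It was -0.00098 at the 50 that fell, where 25 were below 0. At the enhancers not called in H3K4me1 it was 0.04, with 3332 of 6103 above 0. The log2 fold changes of the 2 marks had a Pearson correlation of 0.086 over 6258 enhancers.

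AP-1 matches stood in 21.9% of the windows of the 105 enhancers that rose and in 18% of the 50 that fell. C/EBP matches stood in 21% of those that rose and in 6% of those that fell (3 of 50). RUNX matches stood in 9.52% and 16%. The windows of those that rose had 45% GC and of those that fell 54.5%, which moved with these shares, and its part in them was not tested.

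Whether the 2 marks changed differently was tested as an interaction of mark and treatment over the 16624 H3K27ac loci with H3K4me1. At 2 enhancers (0.0319%) the difference passed, against 0.0361% of all loci. Without 1 library the number ran from 0 (without DMSO replicate 1 of H3K27ac, or DMSO replicate 1, DMSO replicate 2 or PR-957 replicate 1 of H3K4me1) over 1 (without DMSO replicate 2 of H3K27ac or PR-957 replicate 2 of H3K4me1) to 7 and 16 (without PR-957 replicate 1 and replicate 2 of H3K27ac). No enhancer passed in both marks. The intergenic enhancer at chr6:139903522-139905563 lay 528874 bp from CITED2, which encodes a CBP and p300-binding coregulator. Its H3K27ac was 3.78 and 1.71 CPM in DMSO and 0.70 and 0.70 CPM in PR-957 (log2 fold change -1.98, SE 0.59, edgeR adjusted p = 0.151), from 50, 17, 7 and 10 counts. Its H3K4me1 was 4.57 and 4.77 CPM in DMSO and 11.1 and 6.35 CPM in PR-957 (log2 fold change 0.87, SE 0.18, edgeR adjusted p = 7.73e-04). The marks thus lay on opposite sides, without overlap of the groups in either, and their log2 fold changes differed by -2.89 (SE 0.52, edgeR adjusted p = 0.0251). With the GC trend removed, its H3K4me1 change was 0.53 (edgeR adjusted p = 0.104). The other was the enhancer in ENSG00000256029, where the difference was -2.83 (SE 0.54, edgeR adjusted p = 0.0251).

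The study asked whether PR-957 acts on KMT2A target genes, and 21 such genes that it names were followed here. They were chosen by the study, so the list is no independent evidence of a direction. Of the 21, 7 had an enhancer of this kind nearest to them, 22 enhancers in all: CDK6, a cell cycle kinase gene, had 9, the transcription factor genes RUNX2, MEIS1, PBX3 and MEF2C had 5, 3, 2 and 1, and the receptor kinase genes FLT3 and AXL had 1 each. No HOXA gene had one. In H3K27ac none of the 22 passed (median log2 fold change -0.0020, 11 above and 11 below 0, all enhancers 0.04). In H3K4me1, 1 of 22 rose (median 0.13, all enhancers -0.01), and the medians of both marks change sign under at least 1 other scaling.

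The one that rose was the enhancer nearest to MEF2C, a MADS-box transcription factor gene, 74732 bp from its TSS at chr5:88978989-88980216. H3K4me1 was 1.56 and 1.42 CPM in DMSO and 3.72 and 2.87 CPM in PR-957, without overlap (log2 fold change 1.12, SE 0.31, edgeR adjusted p = 0.0305). Its H3K27ac was 1.44, 1.61, 1.91 and 1.83 CPM (log2 fold change 0.30, edgeR adjusted p = 0.957). Its interval has 35.2% GC, and with the GC trend removed the H3K4me1 change was 0.66 (edgeR adjusted p = 0.334).

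In the first part of MEIS1, which encodes a homeobox partner of HOX proteins, an intronic enhancer 3308 bp from the TSS (chr2:66455627-66458490) had an H3K27ac of 2.50 and 1.61 CPM in DMSO and 4.23 and 3.10 CPM in PR-957. The groups did not overlap, but the change did not pass (log2 fold change 0.79, SE 0.40, edgeR adjusted p = 0.610). The MEIS1 promoter, which is outside the definition, fell in H3K27ac (log2 fold change -0.28, edgeR adjusted p = 4.08e-07). The promoters of the other 6 genes did not pass, with log2 fold changes from -0.14 (MEF2C) to 0.41 (AXL). The enhancer nearest to CDK6 had 1.06 and 0.81 CPM in DMSO and 0.70 and 2.67 CPM in PR-957, so that 1 PR-957 library was below and the other above both DMSO libraries (log2 fold change 0.89, edgeR adjusted p = 0.799). Over the 9 enhancers of CDK6 the median was -0.25, with a range of -0.39 to 0.95. At PBX3, also a homeobox partner of HOX proteins, PR-957 replicate 2 was high as well, with 0.98 and 1.01 against 1.11 and 2.11 CPM (log2 fold change 0.72, edgeR adjusted p = 0.865). At RUNX2, FLT3 and AXL the log2 fold changes of H3K27ac were 0.07, -0.12 and 0.12, with edgeR adjusted p of 0.985, 0.971 and 0.980.

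Of 10 further gene lists, 9 had no enhancer past the threshold in either mark. Myeloid transcription factor genes had 52 enhancers at 14 of 20 genes, 12 of them at ETV6, 8 at RUNX1 and 7 at CEBPB. Their H3K27ac median was 0.15 (37 above and 15 below 0) and their H3K4me1 median -0.04 (20 above and 32 below). The lowest adjusted p in edgeR was 0.441 and 0.174. Genes of the NFE2L2 antioxidant response had 13 enhancers at 7 of 22 genes, 5 of them at NFE2L2 itself, with medians of 0.06 and 0.14. Enhancers that share an H3K4me1 interval entered these medians separately. The 0.14 was also both the median and the highest H3K4me1 value at NFE2L2. In this list the lowest H3K4me1 adjusted p in edgeR was 0.0713, and with the GC trend removed 1 enhancer was called. Proteasome subunit genes, the family of the inhibitor's target, had only 3 enhancers at 2 of 42 genes, PSMB7 and PSMA6, with H3K27ac log2 fold changes from -0.12 to 0.07.

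AP-1 and immediate early genes had 18 enhancers at 7 of 16 genes, with medians of -0.03 in H3K27ac and -0.16 in H3K4me1. NF-kB and inflammatory genes had 11 at 5 of 20, 6 of them at TNFAIP3, with medians of 0.13 and -0.08. Heat shock and unfolded protein genes had 5 at 4 of 21 (-0.09 and 0.02), myeloid surface and secreted protein genes 9 at 6 of 20 (-0.07 and -0.12), lymphoid and erythroid transcription factor genes 8 at 2 of 14 (0.04 and 0.09), and interferon and antigen presentation genes 1, at IRF1 (-0.44 and 0.27). None of these passed. The myeloid transcription factor list shares JUNB and EGR1 with the AP-1 list, which shares ATF3 with the heat shock list.

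Cell cycle and apoptosis genes, a list that also holds CDK6, had 36 enhancers at 10 of 20 genes, with medians of -0.03 and 0.04. There 1 enhancer rose in H3K4me1, 428570 bp from MYC, with 6.20 and 6.27 CPM in DMSO and 10.5 and 10.4 CPM in PR-957 (log2 fold change 0.74, SE 0.16, edgeR adjusted p = 0.00161). The groups lay far apart relative to their spread, and the H3K27ac change of 0.47 did not pass (edgeR adjusted p = 0.859). Of the list medians, those of H3K27ac changed sign under another scaling for the cell cycle and the lymphoid and erythroid lists, and those of H3K4me1 for the myeloid transcription factor, myeloid surface, proteasome, heat shock and cell cycle lists.

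H3K27me3 overlapped 120 enhancers (1.91%), which were fainter and richer in GC than the others, with 1.11 against 1.43 CPM per kb of H3K27ac, 1.25 against 1.93 of H3K4me1 and 57.8% against 47.9% GC. Of the 115 tested, 5 rose in H3K27me3 (4.35%, against 0.824% of all 31806 intervals) and 3 fell (2.61%, against 5.09%). Library totals for H3K27me3 were 10032503 to 12047958. These intervals were 7997 to 89679 bp wide, far wider than the enhancers, so the value is that of the domain around them. The 8 were named after their values were seen.

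The enhancer in DOCK9, a CDC42 exchange factor gene, lay in an H3K27me3 interval with 167.6 and 170.5 CPM in DMSO and 112 and 105 CPM in PR-957. The groups did not overlap (log2 fold change -0.64, SE 0.06, edgeR adjusted p = 6.6e-16). The other falls were near DENND3, a Rab exchange factor gene (log2 fold change -0.40, edgeR adjusted p = 1.94e-14), and near FOXF2, a forkhead transcription factor gene (log2 fold change -0.36, edgeR adjusted p = 2.33e-11). At FOXF2 H3K4me1 rose, with a log2 fold change of 1.13 (edgeR adjusted p = 0.0494), and H3K27ac had a log2 fold change of -0.01.

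The rises were near C1QTNF12 (0.37), BSG (0.38), NRARP (0.31), CHMP6 (0.59) and RNF212 (0.56), all between genes, with edgeR adjusted p from 5.78e-07 to 0.0442. At CHMP6, which encodes an ESCRT subunit, H3K27me3 was 8.15 and 11.5 CPM in DMSO and 16.7 and 13.3 CPM in PR-957. None of the 5 passed in H3K27ac or H3K4me1. Under library size scaling 21 rose and 3 fell, under cyclic loess 22 and 3, and with the GC trend removed 3 and 9. Without DMSO replicate 1 the numbers were 2 and 3, and without PR-957 replicate 1 they were 2 and 8.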

How the data were processed

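Cut&Tag libraries of MOLM-13 cells (hg38) were analysed from the counts that the authors deposited, which are whole-number counts per interval over 1 interval list per mark, shared by its 4 libraries. According to the methods, reads were aligned with Bowtie2 and peaks called with MACS2 or SEACR. The submitters' processing notes name Trimmomatic 0.39, Bowtie2 2.2.5, Picard 2.27.1, SAMtools 1.7, SEACR 1.3 and deepTools 3.5.1. The counting tool and the treatment of duplicates are not given in the sources used here, so repeated PCR copies could be counted. The 2 IgG samples were not analysed here.

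Distances were taken to the transcripts of protein-coding genes in GENCODE release 44, and a gene named beside an enhancer is the nearest such gene, without evidence that it is the target. Each enhancer was read from its widest H3K27ac interval and the widest overlapping interval of the other marks, which could share few bases with it. Each mark was fitted whole with edgeR 4.0.16 (R 4.3.3, filterByExpr with a minimum count of 10, TMM, quasi-likelihood test of PR-957 against DMSO), with Benjamini-Hochberg adjustment over all tested intervals and a threshold of 0.05. The interaction used both marks in 1 fit. Levels are CPM on TMM library sizes, per kb of interval where stated, and a pseudocount of 0.5 was used for log2 differences between libraries. The alternatives were DESeq2 1.42.0, other scalings, a loess on GC (span 0.3), filters, the replicate block, left-out libraries and other limits of the definition. The fits were tested on simulated data.

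For each mark and direction the 6 enhancers with the smallest p among those past the threshold whose groups did not overlap were named (where fewer than 3 passed, also the 3 with the smallest p), with those highest in H3K27ac per kb, those past the interaction, the one nearest each KMT2A target gene, those past the threshold in a gene list, and the genes with the most enhancers. The members and gene lists were chosen with earlier results of these data known. One marker list and the sequences of some enhancers are not reported here.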

Additional observations from a re-analysis of the deposited data

Results flagged for a closer look

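At 2 enhancers the change with PR-957 differed between the marks by a test of the difference itself. This was 0.0319% of the enhancers, against 0.0361% of all 16624 loci tested, so the enhancers were called no more often than loci in general. At the enhancer 528874 bp from CITED2, the H3K27ac log2 fold change minus that of H3K4me1 was -2.885 (SE 0.52, edgeR adjusted p = 0.0251), and at the enhancer in ENSG00000256029 it was -2.826 (SE 0.54, edgeR adjusted p = 0.0251). At CITED2 H3K27ac rested on 50, 17, 7 and 10 counts, and without DMSO replicate 1 of H3K27ac the difference was -2.16 (edgeR adjusted p = 0.256). It also did not pass without H3K4me1 DMSO replicate 1 (edgeR adjusted p = 0.115), DMSO replicate 2 (edgeR adjusted p = 0.151) or PR-957 replicate 1 (edgeR adjusted p = 0.249). The ENSG00000256029 difference rested on 20 and 7 H3K4me1 counts in DMSO, and did not pass without either DMSO library of H3K27ac or without any one H3K4me1 library.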

How the results depend on the processing

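Alternatives changed no direction of a named enhancer: over 6 enhancers named for H3K27ac, 46 of 77 values kept their side of the threshold and 31 lost it, over 15 named for H3K4me1 178 of 204 kept it and 26 lost it, over 2 for the interaction 17 of 27 kept it and 10 lost it, and over 8 for H3K27me3 87 of 102 kept it and 15 lost it. A reversal was hardly possible in most of these fits, because they reused the same libraries and called groups did not overlap within a mark. Unchanged directions are therefore no added evidence. With the GC trend removed, the 6 H3K27ac calls became 2 and the 155 H3K4me1 calls 97. Tests on 1 interval per locus gave 3 H3K27ac and 5 H3K27me3 calls. DESeq2 called 1 enhancer in H3K4me1, and without its independent filter, an alternative chosen after seeing the data, 0 in H3K27ac and 4 in H3K4me1. It gave no H3K27ac enhancer an adjusted p with that filter on. For the 2 interaction calls, a mean count of at least 50 or a distance over 5 kb left 1. For the 8 H3K27me3 calls, library size scaling gave 24, cyclic loess 25, a mean count of at least 50 gave 14 and a distance over 5 kb 4. Leaving out 1 library gave 0 to 2 calls in H3K27ac, 24 to 94 in H3K4me1, 0 to 16 in the interaction and 5 to 10 in H3K27me3. The ratio of the median level to promoter-proximal loci, 0.539, was 0.375 without division by length and 0.521 in DMSO replicate 2 alone. The cause of these moves was not tested. The definition gave 5391 to 5928 enhancers under its alternatives. With the replicate number as a block, 6 enhancers were called in H3K27ac (5 of them among the 6, without PTK7 at an edgeR adjusted p of 0.0602), 131 in H3K4me1 (125 of them among the 155), 2 in the interaction and 6 in H3K27me3. Same-numbered libraries deviated together with a correlation of 0.0157 in H3K27ac and -0.0005 in H3K4me1 over 6272 enhancers, so the number was not taken as a pairing. H3K27ac had a median of 30 to 44 counts per enhancer and a median standard error of 0.37, and H3K4me1 150 to 282 counts and 0.15. The part of depth in the number of calls was not tested.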

Other observations

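The enhancer nearest to CD300LB, a receptor gene of myeloid cells, had 7.79 and 7.16 CPM of H3K27ac in DMSO and 12.6 and 11.1 CPM in PR-957 (log2 fold change 0.65, SE 0.20, edgeR adjusted p = 0.163), so the groups did not overlap and the change did not pass. This enhancer was named after its values were seen.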
